A study of Mus musculus with 16 samples.

Results

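The genes described here are 50 genes of DNA replication and the cell cycle, out of 21938 protein-coding genes on the 21 assembled chromosomes in the GENCODE M21 annotation of mm10. They are listed by name, under a rule that uses no measured value but was set with earlier results of these data known, and fall into 6 roles. These are origin licensing (8 genes), the replicative helicase and factors that activate it (12), the sliding clamp and its loader (6), cyclin-dependent kinases and cyclins (12), the E2F transcription factors (8) and activators of mitosis (4). The study asked where histone H2B carrying 1 ubiquitin (H2Bub1) and RNA polymerase II (Pol II) lie when ATXN7L3, the adaptor that several H2B deubiquitylases need, is missing. Both were mapped by chromatin immunoprecipitation and sequencing (ChIP-seq), Pol II through its RPB1 subunit, in mouse embryonic stem cells (mESCs) and embryonic fibroblasts (MEFs), all DBA/2 x C57BL/6, either Atxn7l3+/+ (WT) or Atxn7l3-/- (KO).

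The mESCs were derived from blastocysts and grown with LIF and inhibitors of MEK and GSK3, and the MEFs were prepared from E10.5 embryos without head and gut. Each of the 8 combinations of cell type, genotype and antibody is 1 library, and the other 8 samples (inputs and serine 2 phosphorylated Pol II) were not analysed here. There are therefore no replicates, no p-value is given, and every difference below is between single libraries, in which genotype and library cannot be told apart. The files are peak lists, so 2 quantities were used: the fold enrichment that the authors give for each peak over the background of its own library, and the covered share, which is the percentage of a gene body that lies inside H2Bub1 peaks. How many reads stand behind a list is not known.

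DNA replication is prepared in G1, when the origin recognition complex (ORC), CDC6 and CDT1 load the MCM2-7 helicase onto DNA, and starts in S phase, when CDC45 and the GINS complex turn MCM2-7 into an active helicase. Cyclin-dependent kinases order these steps, and E2F factors switch on many of the genes involved, while a repressor complex on CHR elements keeps a set of mitotic genes low until G2. H2Bub1 is placed on the bodies of transcribed genes as Pol II passes, and it is removed by deubiquitylases. Mouse embryonic stem cells are known for rapid division.

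The promoters were read first, because E2F and CHR letters mark this gene group in the textbook account. A RefSeq promoter entry (GRCm38.p6) was found for 38 of the 50 members, and 37 of these started within 1000 bp of the GENCODE start. E2F letters (TTTCCCGC, TTTGGCGC, TTTCGCGC or TTTGCCGC, either strand) occurred in the 250 bases before the start of 13 of the 37 members (35.1%), against 2.64% of 14265 promoters of the same length. CHR letters (TTTGAA or TTCGAA, either strand) occurred in 10 of the 37 (27.0%, against 14.3%), and CCAAT, on either strand, in 25 (67.6%, against 36.4%). E2F and CHR letters stood together in 5 members, Cdk1, E2f3, Gins3, Mcm7 and Rfc3, or 13.5% against 0.358% of all these promoters. A match is a run of letters and no evidence of binding. The 6 promoters below belong to genes on which the results turn, and were taken among those whose RefSeq start is not downstream of the GENCODE start. They run from 5′ to 3′ on the strand of the gene and end at the base before the start, with E2F and CHR letters in capitals.
Mcm2 (chr6:88898781-88899030, minus strand): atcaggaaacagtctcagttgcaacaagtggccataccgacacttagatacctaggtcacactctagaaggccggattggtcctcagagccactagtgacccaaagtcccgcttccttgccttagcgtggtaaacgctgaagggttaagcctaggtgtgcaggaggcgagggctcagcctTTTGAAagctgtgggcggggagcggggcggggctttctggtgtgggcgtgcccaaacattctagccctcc
Mcm5 (chr8:75109259-75109508, plus strand): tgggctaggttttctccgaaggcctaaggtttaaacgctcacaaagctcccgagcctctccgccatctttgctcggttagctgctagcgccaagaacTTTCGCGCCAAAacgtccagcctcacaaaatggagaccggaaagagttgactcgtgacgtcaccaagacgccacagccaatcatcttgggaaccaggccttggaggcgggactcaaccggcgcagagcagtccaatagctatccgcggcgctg
Mcm6 (chr1:128359706-128359955, minus strand): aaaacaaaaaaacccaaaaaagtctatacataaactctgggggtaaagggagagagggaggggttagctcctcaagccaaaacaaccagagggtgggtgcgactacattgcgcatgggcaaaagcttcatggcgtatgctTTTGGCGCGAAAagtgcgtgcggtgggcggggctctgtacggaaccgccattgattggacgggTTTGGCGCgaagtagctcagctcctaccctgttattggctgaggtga
Cdk2 (chr10:128705052-128705301, minus strand): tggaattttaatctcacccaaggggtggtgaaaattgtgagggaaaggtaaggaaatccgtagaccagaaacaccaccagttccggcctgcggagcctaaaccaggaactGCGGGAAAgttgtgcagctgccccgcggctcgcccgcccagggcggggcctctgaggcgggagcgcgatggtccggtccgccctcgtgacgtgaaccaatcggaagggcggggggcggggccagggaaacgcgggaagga
E2f3 (chr13:29986064-29986313, minus strand): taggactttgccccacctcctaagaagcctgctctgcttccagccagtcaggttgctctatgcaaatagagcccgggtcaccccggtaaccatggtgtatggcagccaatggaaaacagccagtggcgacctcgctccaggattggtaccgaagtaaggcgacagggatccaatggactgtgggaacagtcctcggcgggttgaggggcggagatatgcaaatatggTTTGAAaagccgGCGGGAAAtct
Ccnb2 (chr9:70421555-70421804, minus strand): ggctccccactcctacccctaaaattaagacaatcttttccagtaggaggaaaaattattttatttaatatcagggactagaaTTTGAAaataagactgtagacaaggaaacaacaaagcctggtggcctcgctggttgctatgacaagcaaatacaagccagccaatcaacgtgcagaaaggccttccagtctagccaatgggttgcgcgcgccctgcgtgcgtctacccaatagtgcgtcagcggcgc

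In Mcm5 the capitals hold 2 E2F matches that overlap, at positions -153 and -149 from the start, and Mcm6 has 3 matches, of which the first pair overlaps. In Mcm2 and Ccnb2 only CHR letters are in capitals, and E2f3 has CHR letters at -23 and E2F letters at -11. The members with E2F letters were compared with the others by their medians, with no test. The median covered share of the 13 members with E2F letters was 36.5% in WT mESCs and 0% in WT MEFs, against 40.3% and 1.11% in the 24 without. In KO it was 61.8% in mESCs and 55.4% in MEFs, against 46.1% and 29.1%.

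Before the members, the libraries were checked. The KO H2Bub1 lists were longer than the WT lists (40979 to 48952 peaks in mESCs, 19725 to 28856 in MEFs), whereas the KO Pol II lists were shorter (17074 to 11963, and 45870 to 32232). Over the targeted gene, Atxn7l3, the H2Bub1 covered share in mESCs was 100% (WT) and 62.5% (KO), and in MEFs 22.0% (WT) and 65.3% (KO), with a longest uncovered stretch of 0 bp (WT) and 2750 bp (KO) in mESCs, and 5078 bp (WT) and 2541 bp (KO) in MEFs. In MEFs this stretch does not set the genotypes apart. Of 10 mESC markers, 8 had a Pol II promoter peak in both mESC libraries, Esrrb and Fgf4 had none in either, and all 10 fibroblast markers lacked one there. In MEFs the fibroblast list had 10 of 10 promoter peaks in WT and 9 of 10 in KO (Postn was without one), and its summed fold enrichment was 261 in WT and 120 in KO. Of 9 epithelial and mesothelial markers, none had a promoter peak in WT MEFs and 4 did in KO MEFs (Wt1, Upk3b, Upk1b and Msln, summed fold 78.4), while Epcam, Cdh1, Krt8, Krt18 and Krt19 had none in either. Blood markers with a peak numbered 2 in WT and 4 in KO MEFs, out of 5, and Pol II was called at 4 of 4 Y-linked promoters in WT MEFs and at 0 of 4 in the other 3 Pol II libraries. The share of H2Bub1 peaks that lie on chromosome X was 0.569% (WT) and 2.20% (KO) in mESCs, and 0.735% (WT) and 2.63% (KO) in MEFs. For Pol II peaks it was 0.855% (WT) and 2.76% (KO) in mESCs, and 2.1% in both MEF libraries. Whether the WT and KO libraries differ in sex was not tested, and no member lies on X or Y. The part of these differences in the results below was not tested.

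H2Bub1 covered more of most members in KO than in WT. It was higher in 36, lower in 12 and at the same level in 2 of the 50 members in mESCs, and higher in 50 of 50 in MEFs. Of the 5751 genes whose promoters carry Pol II in both WT and KO mESCs, 4885 were higher and 594 lower, and of the 10892 such genes in MEFs, 10156 were higher and 54 lower. Of all 21938 genes, 11689 were higher and 2049 lower in mESCs, and 11541 were higher and 111 lower in MEFs. In WT MEFs 24 of the 50 members had no H2Bub1 peak in the body, and in KO MEFs all 50 had one. The median covered share of the members in MEFs was 1.11% for WT and 29.1% for KO. In mESCs it was 32.9% for WT and 48.5% for KO. The median of the differences by gene was 22.4 percentage points in MEFs and 7.10 in mESCs. Over the 15 members at least 5000 bp from another gene it was 22.2 points in MEFs and 2.33 in mESCs. The marker lists given above differed between the MEF libraries as well, and their part in the MEF values was not tested.

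A difference of at least 10 points was used as the call. In KO mESCs 21 of 50 members were higher by this call (42%), against 32.1% of all genes, and Mcm5 and Ccnd1 were lower (4%), against 2.81%. In KO MEFs 42 of 50 were higher (84%), against 45.0% of all genes, and none was lower, against 0.109%. Most members have a Pol II promoter peak, so the genes whose promoters carry Pol II in both genotypes are the closer background. Against these, the members stood below the background in mESCs, with 12 of 34 higher (35.3%, against 54.5%), and near it in MEFs, with 41 of 49 higher (83.7%, against 82.1%). By size the median difference in mESCs was 3.85 points for the 34 members (95% interval over members 0 to 13.5), against 12.1 for the 5751 genes. In MEFs it was 22.5 for the 49 members (15.4 to 41.9), against 34.3 for the 10892 genes. The median of the members was lower in both, but each interval holds the background median. Members are also shorter than these genes, with a median length of 15237.5 bp for the 34 and 23407 bp for the mESC background. In mESCs they started higher, with a WT median of 39.2% against 19.5%, and their KO median was 49.4%, against 42.8%. In MEFs the 49 members started lower, with a WT median of 1.05% against 2.15%, and their KO median was 30.8%, against 50.8%. The part of length and of the WT level in these values was not tested.

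**Figure D1:**
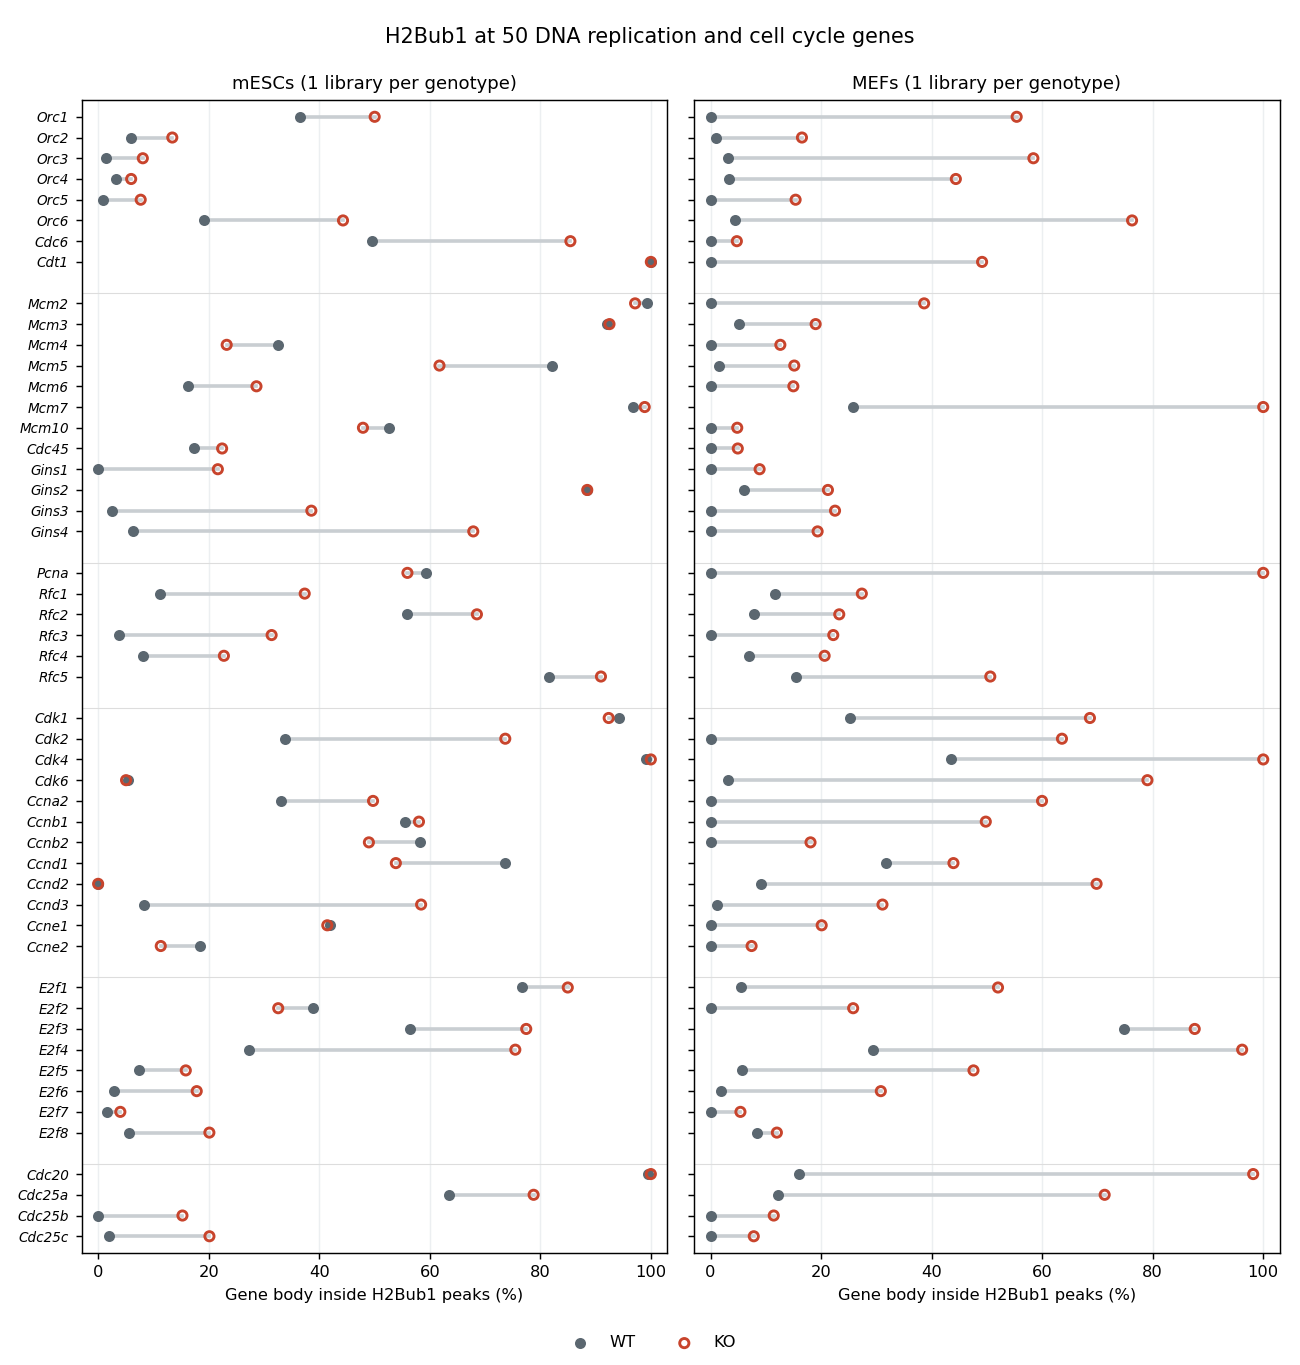
Share of each gene body inside H2Bub1 peaks (x axis, %), with 1 row per member ordered by role, in mESCs (left) and MEFs (right); filled grey points are WT, open red circles KO, and a bar joins the 2 libraries. In MEFs nearly all WT points lie under 50%, with E2f3 at 74.9% as the exception, and every KO circle lies to the right, whereas in mESCs many WT points are already high and 12 KO circles lie to the left of their WT point.

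The difference in mESCs varied with the WT level. The 19 members at 50% or more in WT had a median covered share of 81.5% in WT and 85.0% in KO, with a median difference of 0.467 points. The 31 members under 50% had medians of 7.36% and 22.8%, with a median difference of 14.5 points. Splitting on the WT value alone can give such a contrast, so it is a description. In MEFs E2f3 was the only member at 50% or more in WT.

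In the values that follow, a pair gives WT first and KO second. Among the licensing genes, 3 of 8 were higher by the call in KO mESCs (against 32.1% of all genes and 54.5% of those with Pol II in both) and 7 of 8 in KO MEFs (against 45.0% and 82.1%). Orc1, which encodes the ATPase of ORC, was covered over 36.5% (WT) and 50.04% (KO) in mESCs, and over 0% and 55.4% in MEFs. Orc6, the smallest ORC subunit, had 19.2% and 44.3% in mESCs and 4.39% and 76.3% in MEFs. Both ORC genes were thus higher in KO in each cell type, though each shares its start region with a neighbour, Prpf38a for Orc1 and Vps35 for Orc6. Cdc6, the loader ATPase that joins ORC, went from 49.6% to 85.4% in mESCs but only from 0% to 4.76% in MEFs, where 769 bp were covered. Cdt1, which brings MCM2-7 to ORC, was covered over 100% in both mESC libraries, and over 0% in WT and 49.1% in KO MEFs. Orc2 to Orc5 were low in WT everywhere, between 0% and 5.97%. In KO they lay between 5.98% and 13.4% in mESCs, and in MEFs they lay between 15.4% (Orc5) and 58.4% (Orc3).

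Helicase genes were the role with the highest WT mESC levels, with a median of 42.6%, and the lowest KO MEF levels, with a median of 17.1%. By the call 4 of 12 were higher and 1 lower in KO mESCs (against 32.1% and 2.81% of all genes, and 54.5% higher among those with Pol II), and 9 of 12 were higher in KO MEFs (against 45.0% and 82.1%). Mcm2, a subunit of the MCM2-7 ring, was covered over 99.4% and 97.2% in mESCs, and over 0% and 38.6% in MEFs. Mcm3 had 92.0% and 92.5% in mESCs and 5.22% and 19.0% in MEFs. Mcm7 had 96.8% and 98.9% in mESCs and 25.9% and 100% in MEFs, but 2 other genes, Cops6 and Ap4m1, overlap its body. These 3 ring genes were covered almost end to end in mESCs of either genotype. Mcm5 (chr8:75109569-75128439) was the member with the lowest difference in mESCs, with 82.1% in WT and 61.8% in KO, where 4 separate peaks replaced 3. In MEFs Mcm5 went the other way, from 1.56% to 15.2%. Mcm4 was also lower in KO mESCs, with 32.6% in WT and 23.3% in KO, and was covered over 0% in WT and 12.6% in KO MEFs. Mcm6 was higher in KO mESCs, with 16.2% and 28.6%, and had 0% and 15.0% in MEFs. Mcm2, Mcm3 and Mcm7 were too wide in WT mESCs to be higher by 10 points in KO.

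The GINS genes encode the 4-subunit complex that binds CDC45 and MCM2-7. Gins4 (chr8:23226616-23237659) had the largest difference of all members in mESCs, with 6.33% in WT and 67.9% in KO, and 0% and 19.4% in MEFs. Gins3 had 2.58% and 38.6% in mESCs and 0% and 22.5% in MEFs. Gins1 had 0% and 21.7% in mESCs, and 0% and 8.88% in MEFs. In contrast, Gins2 was covered over 88.5% in both mESC libraries, and over 6.02% in WT and 21.2% in KO MEFs. So 3 of the 4 GINS genes were higher by the call in KO mESCs and Gins2, already wide in WT, was at the same level, while other annotated genes, Gse1 and Gm20388, overlap Gins2. Mcm10 and Cdc45, both needed for helicase activation, were under 5% in KO MEFs (4.84% and 4.93%) and at 0% in WT MEFs. In mESCs Mcm10 had 52.6% and 47.9%, and Cdc45 17.4% and 22.4%.

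Of the clamp and loader genes, 4 of 6 were higher by the call in KO mESCs (against 32.1% of all genes and 54.5% of those with Pol II) and 6 of 6 in KO MEFs (against 45.0% and 82.1%). Pcna (chr2:132249162-132253314), the sliding clamp, had the largest difference of all members in MEFs, with 0% in WT and 100% in KO, where 1 peak spans the 4153 bp gene. In mESCs it was covered over 59.3% in WT and 56.0% in KO. Rfc1, the large loader subunit, had 11.2% and 37.4% in mESCs and 11.7% and 27.4% in MEFs. Rfc3 had 3.70% and 31.4% in mESCs and 0% and 22.2% in MEFs. Rfc2 had 56.0% and 68.5% in mESCs and 7.89% and 23.3% in MEFs, and Rfc5 81.5% and 91.0%, and 15.4% and 50.6%. The loader genes lay between 20.6% (Rfc4) and 27.4% in KO MEFs, except Rfc5 at 50.6%. Other genes overlap Rfc2 (Lat2), Rfc4 (Eif4a2) and Rfc5 (Wsb2).

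Of the kinases and cyclins, 3 of 12 were higher by the call in KO mESCs (Cdk2, Ccna2 and Ccnd3), 1 was lower (Ccnd1) and 8 were within 10 points, against 32.1% higher among all genes and 54.5% among those with Pol II. In KO MEFs 11 of 12 were higher (against 45.0% and 82.1%). Cdk6 (chr5:3341485-3531008), the longest member and one of the G1 kinases, was covered over 5.47% and 5.05% in mESCs (WT and KO), but over 3.20% and 79.0% in MEFs, where 149818 bp lay inside peaks. Cdk4, the other cyclin D kinase, is overlapped by Tspan31 and was covered over 99.2% and 100% in mESCs and over 43.4% and 100% in MEFs. The 2 related kinases thus differed in mESCs by almost the whole gene and both reached high shares in KO MEFs. Cdk2, the partner of cyclins E and A, had 33.8% and 73.7% in mESCs and 0% and 63.6% in MEFs. Cdk1, the mitotic kinase, had 94.3% and 92.4% in mESCs and 25.3% and 68.6% in MEFs.

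The 3 D-type cyclins, which answer to growth signals in G1, each had a pattern of their own. Ccnd1 (chr7:144929931-144939925) was lower in KO mESCs, with 73.6% in WT and 53.9% in KO, and higher in KO MEFs, with 31.8% and 44.0%, and LTO1 overlaps it. Ccnd2 was the only member with no H2Bub1 peak in either mESC library, and had 9.13% in WT and 69.8% in KO MEFs. Ccnd3 had 8.23% and 58.4% in mESCs, the second largest difference there, and 1.17% and 31.1% in MEFs, with Bysl overlapping it. In KO MEFs all 3 were higher than in WT MEFs. The cyclin E genes, which act at the start of S phase, had 0% in WT MEFs, with 7.43% at Ccne2 and 20.1% at Ccne1 in KO, and both differed by less than 10 points in mESCs. Of the mitotic cyclins, Ccnb1 had 55.5% and 58.0% in mESCs and 0% and 49.8% in MEFs, and Ccnb2 had 58.2% and 49.0% in mESCs and 0% and 18.1% in MEFs.

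Among the E2F factors, 4 of 8 were higher by the call in KO mESCs (against 32.1% and, with Pol II, 54.5%) and 6 of 8 in KO MEFs (against 45.0% and 82.1%). E2f3 (chr13:29906575-29986063), an activator E2F, was covered over 56.5% and 77.5% in mESCs and over 74.9% and 87.6% in MEFs, the highest WT MEF value of all members. E2f4, a repressor E2F, had 27.3% and 75.5% in mESCs, the third largest difference there, and 29.4% and 96.2% in MEFs. E2f6 had 2.92% and 17.8% in mESCs and 1.86% and 30.8% in MEFs, and E2f2 had 38.8% and 32.6%, and 0% and 25.8%. E2f1, an activator like E2f3, had 76.7% and 85.0% in mESCs and 5.47% and 52.0% in MEFs. The atypical repressors E2f7 and E2f8 were at 20.1% or less in every library. E2f7 had 1.69% and 4.02% in mESCs and 0% and 5.41% in MEFs, and E2f8 had 5.58% and 20.1%, and 8.47% and 12.01%, the smallest difference of all members in MEFs.

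Of the mitotic activators, 3 of 4 were higher by the call in each cell type (against 32.1% in mESCs and 45.0% in MEFs, and 54.5% and 82.1% of genes with Pol II), all but Cdc20 in mESCs and all but Cdc25c in MEFs. Cdc20, which activates the anaphase-promoting complex (APC/C), was covered over 99.5% and 100% in mESCs and over 16.04% and 98.2% in MEFs, with Elovl1 overlapping its body. Cdc25a, a phosphatase that activates the kinases, had 63.6% and 78.8% in mESCs and 12.2% and 71.3% in MEFs. Its relatives were low, with 0% and 15.3% at Cdc25b and 2.01% and 20.1% at Cdc25c in mESCs, and 0% in WT and 11.4% and 7.83% in KO MEFs.

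The fold enrichment of H2Bub1 can be compared only for members with a peak in both genotypes. Its median log2 ratio of KO to WT was 0.13 in mESCs over 47 members, and 0.10 in MEFs over 26, against 0.076 and 0.34 over all such genes. With peaks at a -log10 q of at least 3 it was 0.078 over 31 members in mESCs and 0.22 over 5 in MEFs, and among members at least 5000 bp from another gene 0.19 over 14 and 0.033 over 9. The 95% interval of the MEF median over members ran from -0.090 to 0.40. The 24 members with no peak in WT MEFs have no such value.

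The place of the peaks in the gene was examined next. The start site lay inside an H2Bub1 peak at 21 members in WT and 39 in KO mESCs (42% and 78%), against 17.8% and 38.6% of all genes. In MEFs it did so at 2 members in WT, Orc2 and Orc3, and at 23 in KO (4% and 46%), against 3.48% and 34.8%. Any H2Bub1 peak in the body was found at 47 and 49 members in WT and KO mESCs (against 53.6% and 60.8% of all genes) and at 26 and 50 in MEFs (against 30.4% and 53.0%). Genes whose promoters carry Pol II in WT and KO alike had such a peak about as often as the members of that kind. In mESCs it was found at 5381 (WT) and 5642 (KO) of 5751 genes, and at 33 and 34 of 34 members. In MEFs it was found at 6103 (WT) and 10233 (KO) of 10892 genes, and at 25 and 49 of 49 members. With each gene body divided into 10 equal bins from the start site, the members in KO MEFs were covered on average over 86.1% of bin 1, 36.9% of bin 4 and 23.3% of bin 10. The 7027 genes with Pol II promoter peaks in WT of both cell types had 84.2%, 63.5% and 25.7% there. In WT MEFs the members had 12.3%, 9.0% and 2.06% there, against 25.6%, 20.9% and 4.79%. The members were thus lower than these genes in bin 4 in both MEF libraries, and in bin 1 in WT MEFs. The 2 sets are unlike, since only 39 of the 50 members have Pol II promoter peaks in WT of both cell types. In KO mESCs the members had 83.7% in bin 1 and 24.9% in bin 10, against 77.9% and 28.6%, with bin 4 at 52.5% against 49.3%, and in WT mESCs 64.3% and 27.3%, against 48.8% and 22.9%. Bin 10 of the members was thus 27.3% in WT and 24.9% in KO mESCs, while bins 1 to 9 were all higher in KO.

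**Figure D2:**
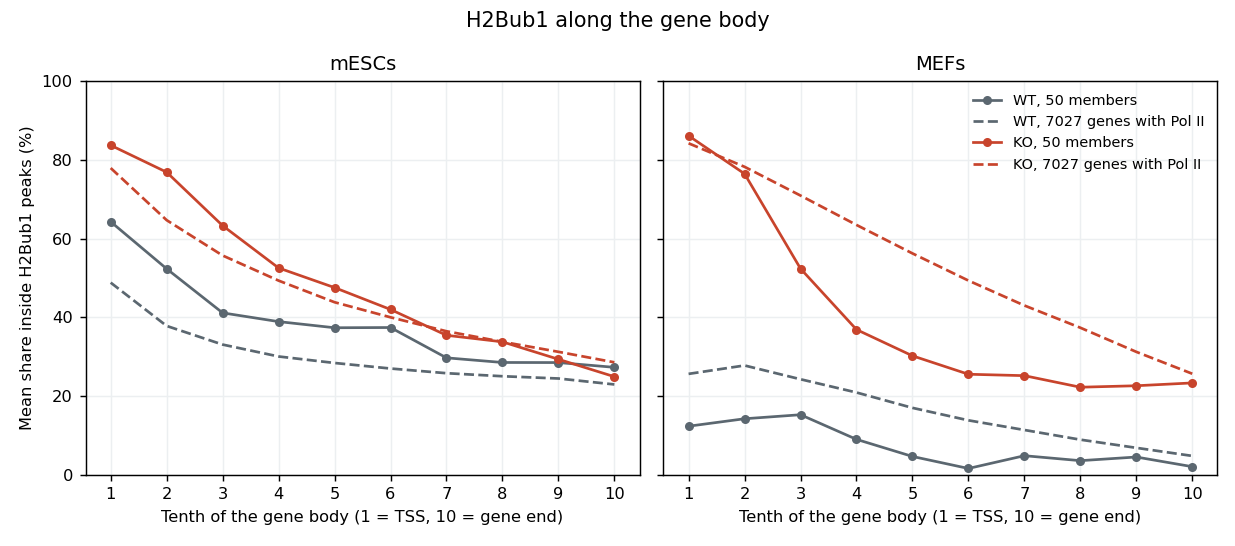
Mean share inside H2Bub1 peaks (y axis, %) in 10 equal bins of the gene body from the start site to the gene end (x axis), for the 50 members (solid lines with points) and for 7027 genes with Pol II promoter peaks in WT of both cell types (dashed), in WT (grey) and KO (red). In KO MEFs the solid line drops from 86.1% in bin 1 to 36.9% in bin 4, where the dashed line is at 63.5%, and in WT MEFs the solid line is at 9.0% and the dashed at 20.9% there.

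The cell types were then set against each other, which compares libraries with other backgrounds and numbers of peaks. In WT 29 of 50 members had a covered share at least 10 points higher in mESCs than in MEFs (58%, against 23.0% of all genes), and only E2f3 was lower in mESCs (2%, against 6.25%). The median of the differences was 25.5 points for the members. For the 39 members with Pol II promoter peaks in both cell types it was 18.4 (95% interval over members 2.27 to 51.3). The 7027 genes of that kind had 4.88, which lies inside that interval. The size of this difference depended on the peaks and members taken. Over the 50 members it was 16.6 points with equal numbers of peaks in both lists and 4.68 points with peaks at a -log10 q of at least 3, and over the 15 members at least 5000 bp from another gene it was 2.58 points. In KO 22 members were higher in mESCs (44%, against 16.2%) and 11 were lower (22%, against 24.6%). The median difference in KO was 8.71 points for the 50 members and 7.48 for the 39 (95% interval over members -3.12 to 12.8), against -5.02 for the 7027 genes. Members that were higher in KO MEFs by the most were Cdk6 and Ccnd2, and the reverse was found for Cdc6, with 85.4% in KO mESCs and 4.76% in KO MEFs.

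**Figure D3:**
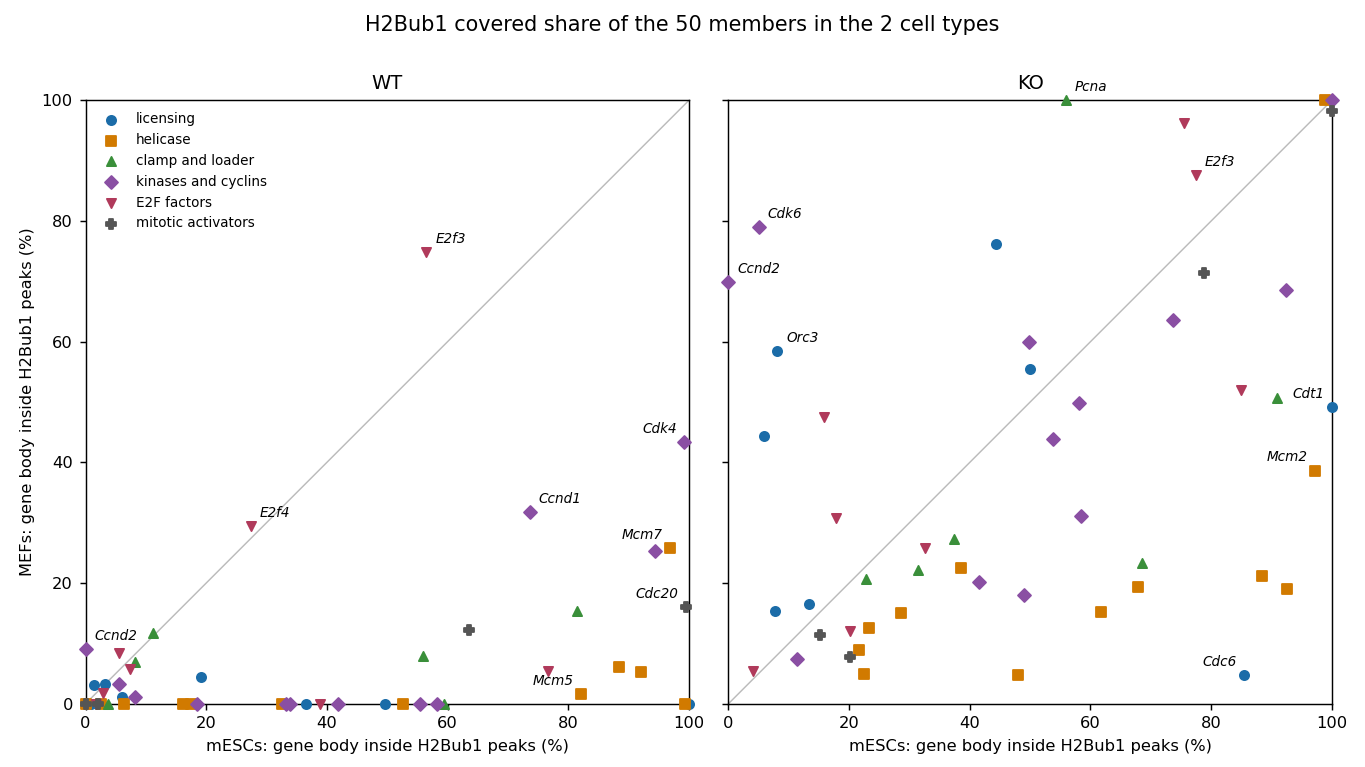
Covered share in mESCs (x axis, %) against MEFs (y axis, %) for the 50 members in WT (left) and KO (right), with role given by colour and shape and a grey line of equal values. In WT E2f3 (56.5% and 74.9%) lies far above the line and most members lie along the bottom, while in KO the helicase genes (squares) stay mostly below the line and Cdk6, Ccnd2 and Orc3 lie far above it.

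Pol II promoter calls were the same in WT and KO MEFs for every member, and differed at 7 members in mESCs. A promoter peak, within 1000 bp of the start, was found at 39 of 50 members in WT mESCs (78%, against 33.9% of all genes) and at 36 in KO mESCs (72%, against 31.3%). Both libraries had a peak at 34 members (68%, against 26.2%). In MEFs 49 of 50 members had a peak in WT, in KO and in both (98%, against 54.1%, 51.1% and 49.6%). The exception was Rfc2, with the nearest peak 1173 bp from the start in WT and 1203 bp in KO, and no promoter peak in any library.

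Calls that differed between WT and KO mESCs came to 5 members in WT only (10%, against 7.64%) and 2 in KO only (4%, against 5.13%). In both directions the share of the members was near that of all genes. Gins4 had a fold enrichment of 4.96 in WT mESCs and no peak in KO mESCs, with 11.4 in WT and 9.54 in KO MEFs. Rfc3 had 4.51 in WT mESCs only, with 8.44 and 6.53 in MEFs. Orc3, whose promoter window also holds the start of Rars2, had 3.87, with 21.7 and 20.5 in MEFs. The WT median over all genes with a promoter peak was 4.39 in mESCs and 13.2 in MEFs, so Gins4 and Rfc3 lay above it in mESCs and Orc3 below, and these levels differ between the cell types for all genes. Cdk6 had 4.16 in WT mESCs, from a summit 1348 bp downstream of the start, with 11.6 and 13.9 in MEFs, and its nearest KO mESC peak lay 1258 bp from the start. E2f6, a repressor E2F, had 3.56 in WT mESCs, with 10.7 and 11.1 in MEFs. Called in KO mESCs only were Rfc5, with 4.62, and Cdk2, with 3.20, the latter next to the start of Pmel. In MEFs Rfc5 had 11.6 and 16.6, and Cdk2 14.2 and 15.2. None of the 7 lay above the WT mESC median of the members, 4.96. Of the 5 members called in WT only, 4 had more H2Bub1 in KO mESCs than in WT and Cdk6 did not.

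In WT, 10 of the 49 members called in MEFs were not called in mESCs (20% of the 50, against 22.0% of all genes), and no member had a peak in WT mESCs only (against 1.82%). Besides Rfc5 and Cdk2 these were Mcm3, Gins2, Gins3, Ccnd2, Ccnd3, E2f2, Cdc25b and Cdc25c, which lacked a peak in KO mESCs as well. In MEFs the promoter fold of Mcm3 was 6.82 (WT) and 2.83 (KO), Gins2 had 5.89 and 2.91, and Gins3 had 9.81 and 4.52. Ccnd2 had 24.7 and 12.1, the highest WT value of all members, from summits 1242 and 1250 bp downstream of the start. E2f2 had 4.08 and 3.65, Cdc25b 9.22 and 5.95, and Cdc25c 3.76 and 2.50. Some of these had wide H2Bub1 without a Pol II promoter peak. Mcm3 and Gins2 were covered over 92.0% and 88.5% in WT mESCs, and Gins2 had Pol II peaks over 43.0% of its body beyond the promoter there, where other genes overlap it.

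**Figure D4:**
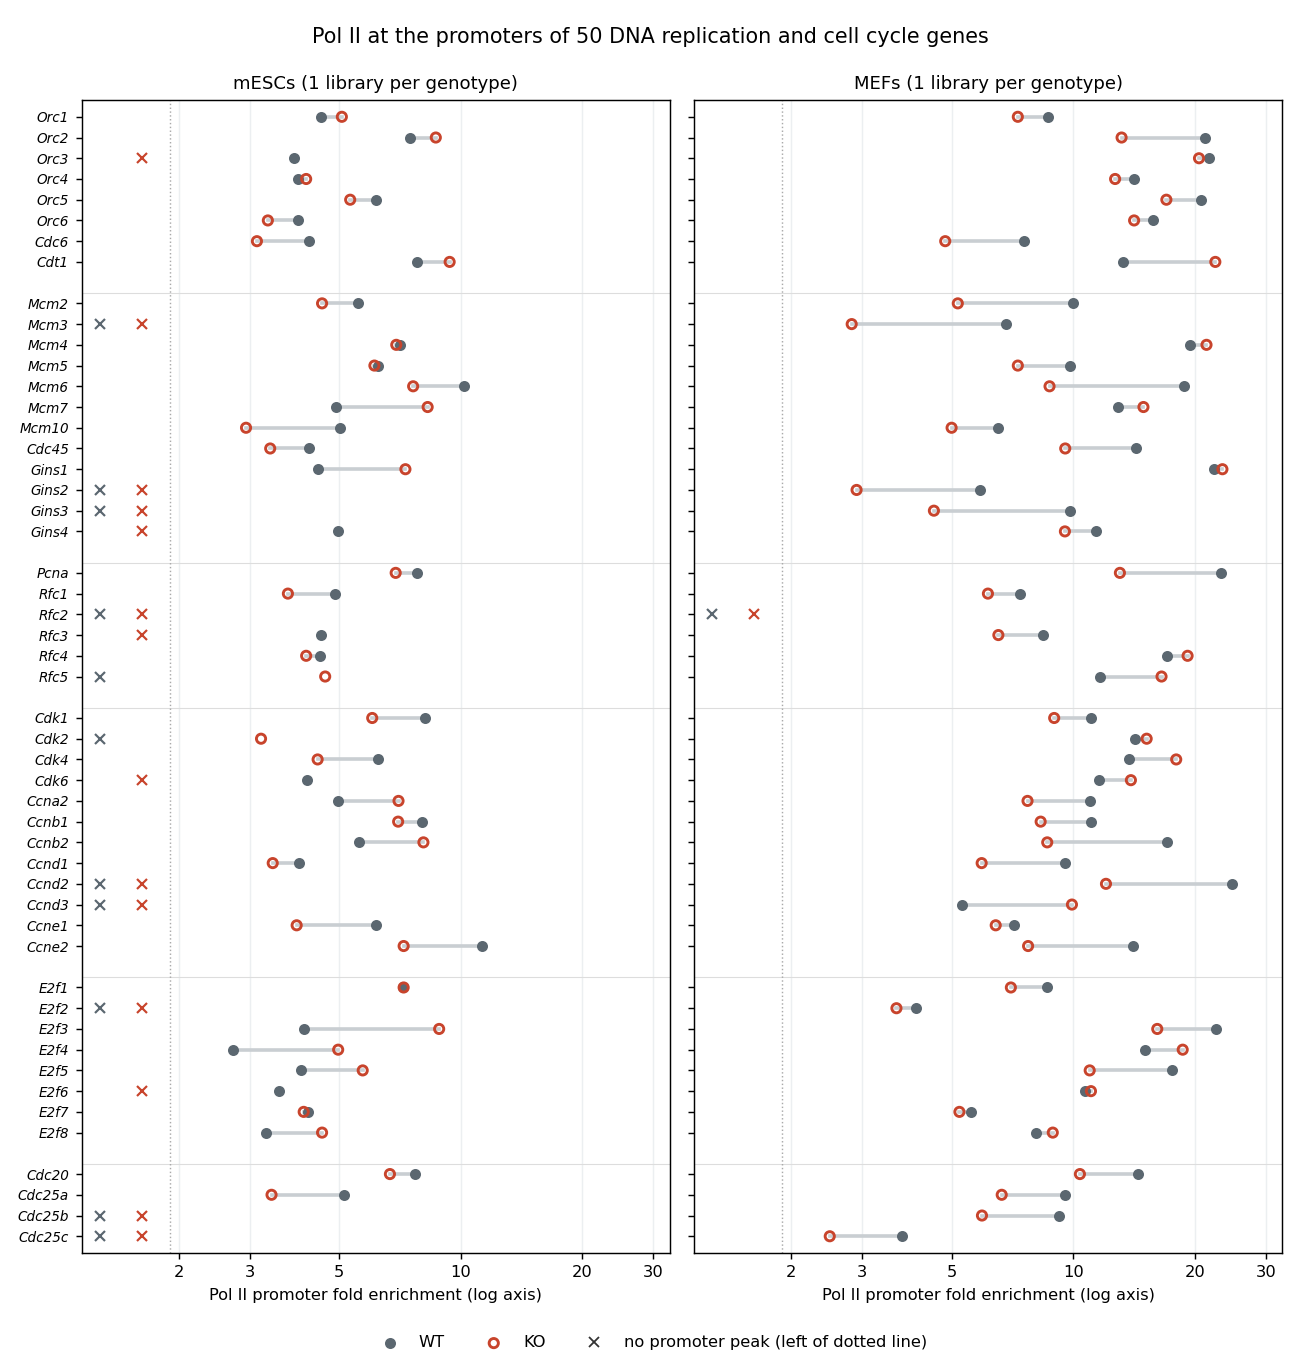
Pol II promoter fold enrichment (x axis, log scale) of each member in mESCs (left) and MEFs (right), with WT as filled grey points, KO as open red circles and crosses left of the dotted line for a library with no promoter peak. The mESC panel has crosses at 16 members and no value above 11.3, and the MEF panel has crosses at Rfc2 alone, with 36 KO circles to the left of WT and 13 to the right, where all 10892 genes give 7378 and 3514.

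Fold enrichments at the promoters were compared where both genotypes had a peak. In mESCs the median log2(KO/WT) was -0.14 over 34 members, against 0.025 over 5751 genes, and 21 members were lower and 13 higher, against 2734 and 3017 of the 5751 genes. In MEFs it was -0.30 over 49 members, against -0.23 over 10892 genes, and 36 members were lower and 13 higher, against 7378 and 3514 of those genes. The call here was a ratio of 1.5. In mESCs 4 of 34 members were higher in KO (11.8%, against 11.0%) and 4 were lower (11.8%, against 10.8%), which is near the shares of all genes. In MEFs 2 of 49 were higher (4.08%, against 5.72%) and 15 were lower (30.6%, against 24.3%). The fibroblast markers moved the same way in MEFs, with 7 of 10 lower by this call, and their part in the members' values was not tested.

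The highest ratios in mESCs were at E2f3, where the promoter fold went from 4.09 (WT) to 8.84 (KO), E2f4, with 2.73 and 4.97, and Mcm7, with 4.90 and 8.28. The E2f4 value was the lowest of the members in WT mESCs. Ap4m1 starts in the promoter window of Mcm7, whose mESC summits lay 562 bp (WT) and 950 bp (KO) downstream of the start. E2f3 had 22.6 and 16.2 in MEFs, E2f4 15.1 and 18.7, and Mcm7 12.9 and 14.9. At E2f3 the direction in mESCs was thus not that in MEFs, and its MEF summits lay 1462 and 1397 bp downstream of the start. The lowest ratios in mESCs were at Mcm10, with 5.01 and 2.94, Ccne1, with 6.15 and 3.92, and Ccne2, with 11.3 and 7.22. In MEFs these had 6.50 and 5.00, 7.14 and 6.43, and 14.0 and 7.73, so all 3 were lower in KO there as well. They were picked by their mESC ratios, and in MEFs 7378 of the 10892 genes with a peak in both genotypes were lower in KO. Ccne2 had the highest mESC fold enrichment of any member.

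In MEFs the highest ratios were at Ccnd3, with 5.30 in WT and 9.93 in KO, Cdt1, with 13.3 and 22.5, and Rfc5. Cdt1 had 7.78 and 9.39 in mESCs, the latter being the highest KO mESC value. The lowest MEF ratios were at Mcm3, Gins3 and Mcm6. Mcm6 had 18.8 in WT and 8.74 in KO MEFs, and 10.2 and 7.62 in mESCs, and its promoter is the one shown above with 3 E2F matches. Of the 7 genes of the MCM2-7 ring and Mcm10, Mcm2, Mcm3 and Mcm6 were lower by the call in KO MEFs. Mcm4 had 19.5 and 21.4 in MEFs, next to the start of Prkdc, and Mcm5 had 9.84 and 7.29. Pcna had 23.3 and 13.1 in MEFs and 7.81 and 6.90 in mESCs. The other 10 members lower by the call in KO MEFs were Orc2, Cdc6, Gins2, Ccnb2, Ccnd1, Ccnd2, Ccne2, E2f5, Cdc25b and Cdc25c.

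Pol II beyond the promoter, more than 1000 bp downstream of the start and up to the gene end, was called at 17 members in WT and 13 in KO mESCs (34% and 26%, against 20.7% and 13.7% of all genes). In MEFs it was called at 30 in WT and 25 in KO (60% and 50%, against 42.4% and 34.0%). The closer background is again genes whose promoters carry Pol II in WT and KO alike. In mESCs 12 (WT) and 9 (KO) of 34 such members were called, and 1987 and 1330 of the 5664 such genes with a value. In MEFs 29 (WT) and 24 (KO) of 49 members were called, and 7020 and 5786 of 10789 genes. The members thus lay near this background in mESCs and below it in MEFs. At Cdk4 the covered part of the stretch beyond the promoter was 95.1% in WT and 80.5% in KO MEFs, and 18.0% and 0% in mESCs. At Ccnd2 it was 88.0% in WT and 23.6% in KO MEFs, and at Ccnd1 73.2% and 38.6%. Ccnd1 and Ccnd2 thus had less of the body in Pol II peaks in KO MEFs, while more of it lay in H2Bub1 peaks. The third D-type gene, Ccnd3, had 10.8% and 9.06% in Pol II peaks. This is also the pattern of all genes with Pol II in both MEF libraries. Their median Pol II share beyond the promoter was 1.49% (WT) and 0.254% (KO), and their median H2Bub1 covered share 2.15% and 50.8%. At Cdc20 the part beyond the promoter inside Pol II peaks was 85.9% and 64.6% in MEFs. The KO Pol II lists are shorter in both cell types. With both lists of a pair cut to the same length, 17 (WT) and 13 (KO) members were called in mESCs, and 29 (WT) and 25 (KO) in MEFs. Such a cut does not make the unknown depths equal, and the part of list length and depth in these counts was not tested. With a promoter that ends 300 bp downstream 36 (WT) and 31 (KO) members were called in mESCs, and 48 (WT) and 45 (KO) in MEFs. Over the 15 members at least 5000 bp from another gene, 3 (WT) and 2 (KO) were called in mESCs, which is near the shares of all genes, and 8 (WT) and 7 (KO) in MEFs.

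In MEFs no member had a promoter peak in 1 genotype only, against 4.41% of all genes in WT only and 1.46% in KO only. With the summit required inside the window, 3 members did, Mcm7 in WT and Ccnd2 and E2f3 in KO. The highest KO peak of Mcm7 has its summit 1417 bp downstream, and the highest peaks of Ccnd2 and E2f3 have theirs beyond the window in both genotypes.

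Other genes of the pathway were counted as 86 genes in 7 lists. In mESCs 53 of the 86 had at least 10 points more H2Bub1 in KO and 4 had less (against 32.1% and 2.81% of all genes, and 54.5% higher among those with Pol II in both), with a median difference of 13.9 points, against 12.1 for the genes with Pol II. In MEFs 69 had more and none less (against 45.0% and 0.109% of all genes, and 82.1% higher among those with Pol II), with a median difference of 30.5 points, against 34.3 for the genes with Pol II. Pol II promoter peaks were called at 64 in WT and 66 in KO mESCs (against 33.9% and 31.3%), and at 83 and 84 in MEFs (against 54.1% and 51.1%). Of the 83 called in both MEF libraries, 6 were at least 1.5 times higher in KO and 23 at least 1.5 times lower, against 5.72% and 24.3%. Of the 58 called in both mESC libraries, 3 were higher and 9 lower by this ratio, against 11.0% and 10.8%. The largest differences by list were those of the 7 CDK inhibitors, with a median difference of 33.3 points in mESCs and 83.5 in MEFs, with 5 of 7 higher and 1 lower in KO mESCs and 7 of 7 higher in KO MEFs. The lower one was Cdkn1c, which encodes p57, with 54.0% and 14.7% in mESCs and 0% and 66.6% in MEFs. Cdkn2b, an inhibitor of CDK4 and CDK6, was covered over 0% and 62.1% in mESCs and over 0% and 100% in MEFs. Cdkn1a, which encodes p21, had 94.9% and 100%, and 69.6% and 100%, with a Pol II promoter fold of 21.4 in WT and 34.7 in KO MEFs. Cdkn2a had a Pol II promoter fold of 10.1 in WT and 6.68 in KO MEFs, so Pol II at the inhibitor genes went in both directions. The 17 APC/C genes had medians of 11.8% and 56.2% in MEFs, with 15 of 17 higher. The 24 genes of the replicative polymerases and fork had the smallest median difference in MEFs, 16.5 points, with 16 of 24 higher, which is near the helicase genes' 14.4 points.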

How the data were processed

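Chromatin was immunoprecipitated in buffers with N-ethylmaleimide, which blocks deubiquitylation. The authors aligned short single-end reads to mm10 (Bowtie 1.0.0, per the submitters' notes) and made 1 peak list per library (MACS2 2.1.1.20160309), broad for H2Bub1 and narrow for Pol II. H2Bub1 was scaled by size factors over intergenic regions and Pol II by total mapped reads. How this scaling entered the calls, the control and the thresholds are not given in the sources used here. Each deposited line holds a fold (a linear ratio over local background), a -log10 p, a -log10 q, a score that was found to be 10 times the -log10 q cut to a whole number (within 1) and, for narrow peaks, the summit offset.

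A Pol II promoter call needed 1 bp of peak within 1000 bp of the GENCODE start, and its value was the highest fold there. Differences were called at 10 points of covered share or a ratio of 1.5, with no test. Deeper sequencing can lengthen a list and widen its peaks, and depth is unknown. The members and lists were chosen with earlier results of these data known. The rule for values in every library took members whose Pol II promoter call differs between genotypes or cell types, the 3 largest and 3 smallest differences or ratios per cell type, and Rfc2. Values of other members were added after they were seen. The alternatives required a -log10 q of 3 or more, took the same number of top peaks from both lists of a pair, used the 15 members at least 5000 bp from another gene, the start of any protein-coding transcript, a window from 100 bp upstream to 300 bp downstream, or the summit inside the window, ended the promoter 300 bp downstream, joined peaks less than 1000 bp apart, or left the first 1000 bp out of the body. The scripts (Python 3.11.15 with pandas 2.3.3, numpy 2.4.6, matplotlib 3.10.9 and scipy 1.17.1) were tested on simulated data.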

Additional observations from a re-analysis of the deposited data

Results flagged for a closer look

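H2Bub1 over the gene body was lower in KO than in WT mESCs at 12 members and higher in KO than in WT MEFs at all 50, so 12 members went in opposite directions. Mcm5 and Ccnd1 are given here because only these 2 differed by at least 10 points in both cell types. At Mcm5 the covered share in KO minus WT was -20.3 points in mESCs and 13.6 points in MEFs. At Ccnd1 it was -19.7 points in mESCs and 12.2 points in MEFs. With 1 library per group, the difference between the cell types was not tested.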

How the results depend on the processing

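Of 91 alternative values for 18 results, 83 stayed within 1.5 times the reported count (as a share of the members used) or within the exact binomial 95% interval of the reported median, and 8 moved. With a promoter that ends 300 bp downstream, Pol II beyond the promoter was called at 36 members in WT and 31 in KO mESCs and at 48 in WT and 45 in KO MEFs, in place of 17, 13, 30 and 25. Over the 15 members at least 5000 bp from another gene, the mESC counts were 3 in WT and 2 in KO, and the median WT difference in H2Bub1 covered share between mESCs and MEFs was 2.58 points in place of 25.5. With the summit inside the window, 3 promoters in MEFs had a peak in 1 genotype only in place of 0. Staying within the interval allows large moves, since the spread across members sets it. The WT difference between cell types was 4.68 points at a -log10 q of at least 3 and 16.6 with equal numbers of peaks, and the mESC difference between KO and WT was 2.33 points over the 15 members in place of 7.10. The median log2 H2Bub1 fold ratio in MEFs was 0.22 at a -log10 q of at least 3 (5 members) and 0.033 among the 15 members (9 with a value) in place of 0.10, and in mESCs 0.078 and 0.19 in place of 0.13. The cause was not tested. The median H2Bub1 fold has no value for joined peaks, since joining does not change it. No paired analysis was possible because each group holds 1 library. Unknown depth limits what an absent peak can show, and 20 members share bases of their body, and 10 their promoter window, with another protein-coding gene, whose peaks cannot be told apart from theirs.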
